A study of Mus musculus with 6 samples.

Results

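Early cortical neuron genes were followed here through the loss of the Hippo kinases Lats1 and Lats2 in the embryonic mouse cortex. They are 47 genes of newborn neurons, Cajal-Retzius cells, deep layer neurons and neurons in general, chosen by name with earlier results of these data known. All 47 had a row with exactly 1 gene symbol among the 22180 genes so named on the array. Where a gene had several rows, the row with the highest mean over the 6 arrays was used. Of the 47, 46 lay above the limit for dim genes and entered the test, and Lhx5 did not. They were read as 9 newborn genes, 6 Cajal-Retzius genes, 6 deep layer genes and 26 pan-neuronal genes.

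The samples were dissected cortices of 6 mouse embryos at E12.5, untreated and each from a separate embryo, hybridised to 1 Affymetrix whole-transcript array apiece. There were 3 control embryos, whose alleles the labels do not give further, and 3 embryos of the genotype Lats1F/F;Lats2F/F;Nestin-Cre, meant to lack both kinases and called DKO (double knock-out) here. F stands for an allele flanked by loxP sites, and the Nestin-Cre transgene recombines such alleles in progenitors of the nervous system and so in their offspring. Cells of other lineages in the dissected tissue, such as meningeal and blood cells, are not its target. Values are on a log2 scale, so that a difference of 1 is a doubling of the signal. They were normalized to 1 shared distribution, which hides any change that all transcripts have in common.

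In the cortex, progenitors that line the ventricle give rise to neurons directly or through intermediate progenitors. A newborn neuron leaves the cell cycle, switches on genes of migration and axon growth, and moves towards the surface, where the first-born neurons form the preplate and then the deep layers. Cajal-Retzius cells are early neurons of the cortical surface that secrete reelin, and many of them come from the cortical hem, at the edge of the cortex. At this stage few neurons have matured, and synaptic and neurofilament genes are at the start of their rise.

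The targeted genes checked the labels in part. Lats1 had a log2 fold change of -0.91 ± 0.14 (SE, n = 3 per group, limma adjusted p 0.0189), and Lats2 was not lower, at 0.24 ± 0.10 (SE, limma adjusted p 0.285); the exons that its probes cover are not given in the sources used here. The dorsal cortical genes Emx2, Lhx2 and Pax6 had log2 values of 8.92 or more in all 6 embryos, above the dim limit of 5.02. The ventral genes Dlx2 and Dlx5 reached 9.08 and 9.11 in control 2, so these levels do not show that the tissue was dorsal alone. Of 16724 genes tested by limma, 228 rose and 60 fell at an adjusted p under 0.05. The fallen genes numbered 11 without control 1, 13 without control 3 and 14 without DKO 1 or DKO 3, and the risen genes 121 to 140 when any array but DKO 2 was left out. DKO 2 stood apart from the other DKO embryos in markers of non-neural cells. It was the lowest DKO embryo for 11 of 11 tested endothelial genes (with Rgs5 and Pdgfrb of pericytes, the cells around vessels, in that list). The same held for 9 of 10 meningeal genes, 5 of 5 erythroid genes and 6 of 7 microglial genes. Over all genes tested DKO 2 was the lowest DKO embryo in 7167 of 16724.

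Neuron genes were mostly a little lower in the DKO cortex, and few differences reached the test's threshold. Of the 46 tested, 42 had a lower mean in DKO and 4 a higher one, against 60.2% of all genes with a lower mean. The median log2 fold change was -0.18, beside -0.03 over all genes tested. One gene passed the test, and it rose: Stmn4, a stathmin of neurons, while 0 fell. Over all genes tested 1.72% were called, 1.36% as higher and 0.359% as lower. At an unadjusted limma p under 0.05, 23 were lower and 1 higher, where 9.18% of all genes were lower and 6.39% higher. The count of 23 was 16 without control 1, control 3 or DKO 1, where 5.86% to 7.38% of all genes were lower. It was 29 without DKO 2, where 8.04% were. In 22 genes all 3 DKO embryos lay below all 3 control embryos, a pattern found in 13.4% of all genes tested. Without DKO 2 the pattern held in 34 genes, against 18.8% of all genes with 1 array fewer. With any other array left out it held in 22 to 27 genes, against 17.0% to 22.3% of all genes. Stmn4 was the 1 gene with all DKO embryos above all controls, found in 8.22% of all genes. The number with a lower mean lay between 40 and 42 when 1 embryo was left out, and was 39 when each array was centred on its own median. In bulk tissue, fewer neurons and less RNA of these genes per neuron cannot be told apart.

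**Figure D1:**
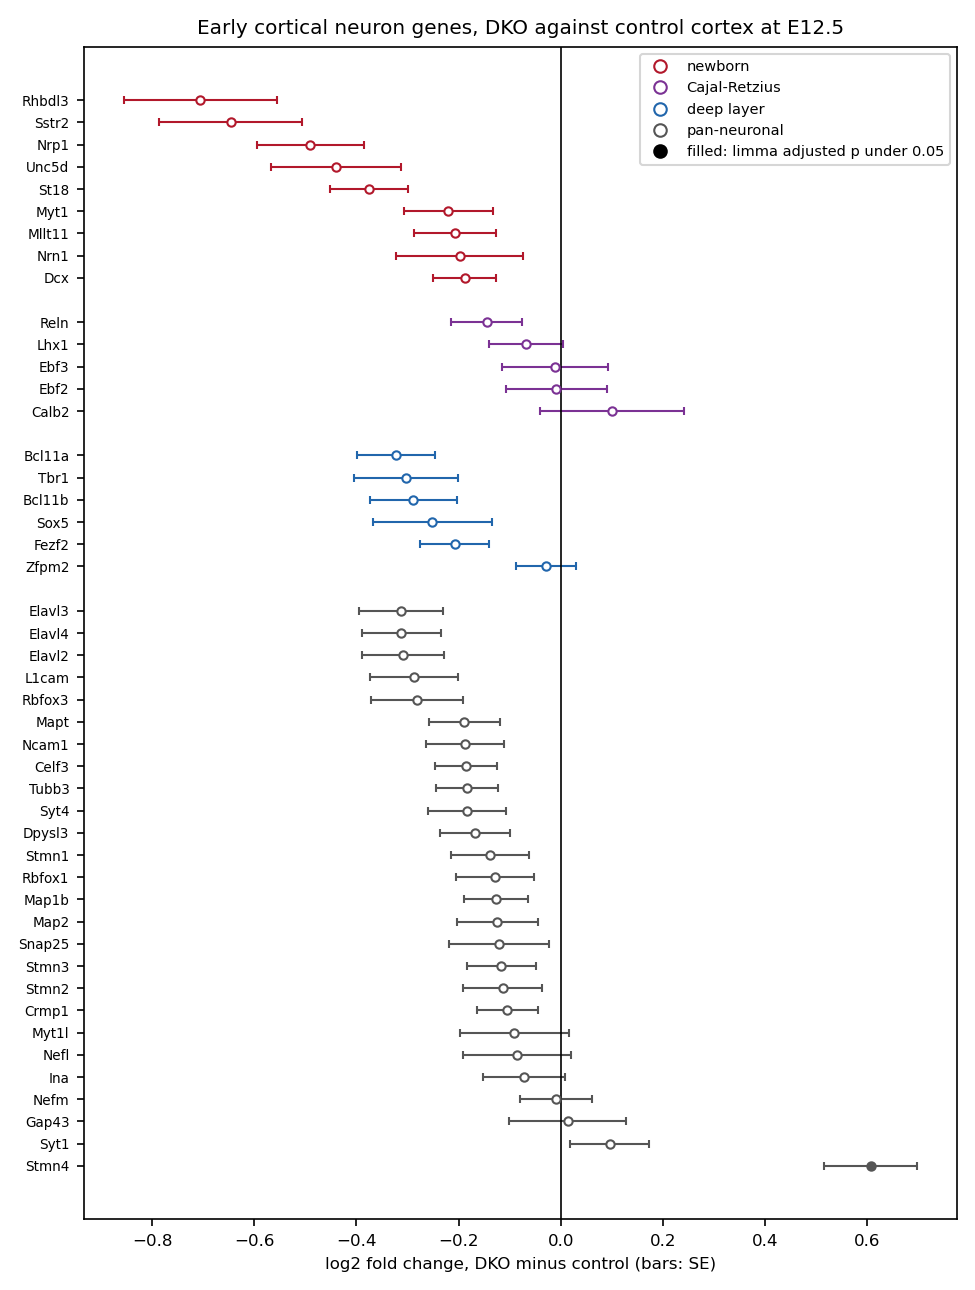
Log2 fold change of the 46 tested genes, DKO minus control, by class, with bars of 1 SE (n = 3 per group); open points missed and the filled point passed an adjusted p of 0.05 in limma. The newborn genes reach furthest to the left, the Cajal-Retzius genes lie around 0, and Stmn4 alone stands at 0.61 on the right.

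Newborn neuron genes had the lowest median of the 4 classes. All 9 had a lower mean in DKO, with a median log2 fold change of -0.38 and a range from -0.71 to -0.19, yet 0 passed the limma test over all genes (8 had an unadjusted p under 0.05, and the smallest adjusted p was 0.0532). The count of 8 was 5 without control 1, and the share of all genes lower at that p went from 9.18% to 5.86%. In 7 of the 9 all DKO embryos lay below all controls, against 13.4% of all genes tested. All 9 means stayed lower with each embryo left out in turn, with medians between -0.43 and -0.31. Intermediate progenitor and neurogenic genes, the stage before, were lower in the same arrays: of 13 tested, 4 fell, 0 rose and 9 did not pass, with a median of -0.41. Of all genes tested 0.359% fell. This list and the newborn class were both chosen with earlier results of these data known, so these counts and medians are no independent test.

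St18, a zinc-finger transcription factor of the Myt family that appears as cells become neurons, came nearest to the threshold. It stood at 7.75, 7.61 and 7.78 in control 1, 2 and 3 and at 7.33, 7.44 and 7.25 in DKO 1, 2 and 3. The groups were apart, and each DKO embryo was below the lowest control. The log2 fold change was -0.38 ± 0.08 (SE, limma adjusted p 0.0532), and without DKO 2 it was -0.42 with an adjusted p of 0.0464. With each other embryo left out the limma adjusted p lay between 0.0623 and 0.197. Myt1, another member of that family, had a log2 fold change of -0.22 ± 0.09 (SE, limma adjusted p 0.273), and its groups overlapped in DKO 2 alone.

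Rhbdl3, a rhomboid-like membrane protein found in newborn cortical neurons, showed the largest decrease in mean. Its values were 7.26, 7.17 and 7.81 in control 1, 2 and 3 and 6.68, 6.72 and 6.73 in DKO 1, 2 and 3. The DKO embryos lay close together, and the spread lay in the controls, where control 3 was high. The log2 fold change was -0.71 ± 0.15 (SE, limma adjusted p 0.0634), a 1.63-fold lower signal. Without control 3 it shrank to -0.51, but its limma adjusted p became 0.0245. With each other embryo left out that p lay between 0.0533 and 0.182.

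Sstr2, a receptor for somatostatin on young migrating neurons, followed the same order of embryos. It stood at 9.08, 8.98 and 9.47 in control 1, 2 and 3 and at 8.31, 8.59 and 8.69 in DKO 1, 2 and 3. All DKO embryos were below all controls, with control 3 highest and DKO 1 lowest. The log2 fold change was -0.65 ± 0.14 (SE, limma adjusted p 0.0680). Unc5d, a netrin receptor of multipolar neurons below the cortical plate, had the same highest and lowest embryo and a log2 fold change of -0.44 ± 0.13 (SE, limma adjusted p 0.148).

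Nrp1, a receptor for semaphorins and VEGF carried by axons and by vessels, stood at 7.74, 7.58 and 7.97 in control 1, 2 and 3 and at 7.31, 7.15 and 7.36 in DKO 1, 2 and 3. The groups did not overlap, and DKO 2 was lowest. The log2 fold change was -0.49 ± 0.10 (SE, limma adjusted p 0.0649). DKO 2 was also lowest in every gene tested of the endothelial list. The mean log2 value of its 11 genes ran from 7.52 to 7.68 in control and was 7.46 in DKO 1, 7.002 in DKO 2 and 7.53 in DKO 3. The part of vessels in the Nrp1 value was not tested, and without DKO 2 its log2 fold change was -0.43 (adjusted p 0.134).

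Dcx, the microtubule-binding protein doublecortin of migrating neurons, had the smallest difference of the newborn class and also the tightest controls. Its values were 10.34, 10.30 and 10.31 in control 1, 2 and 3 and 10.15, 10.17 and 10.06 in DKO 1, 2 and 3. The groups were apart, with a log2 fold change of -0.19 ± 0.06 (SE, limma adjusted p 0.195). Mllt11, a small protein of young neurons, had a log2 fold change of -0.21 ± 0.08 (SE, limma adjusted p 0.269). Nrn1, the growth-promoting surface protein neuritin, had a log2 fold change of -0.20 ± 0.12 (SE, limma adjusted p 0.504), and its groups overlapped because DKO 2, at 9.004, stood above 2 of the controls.

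**Figure D2:**
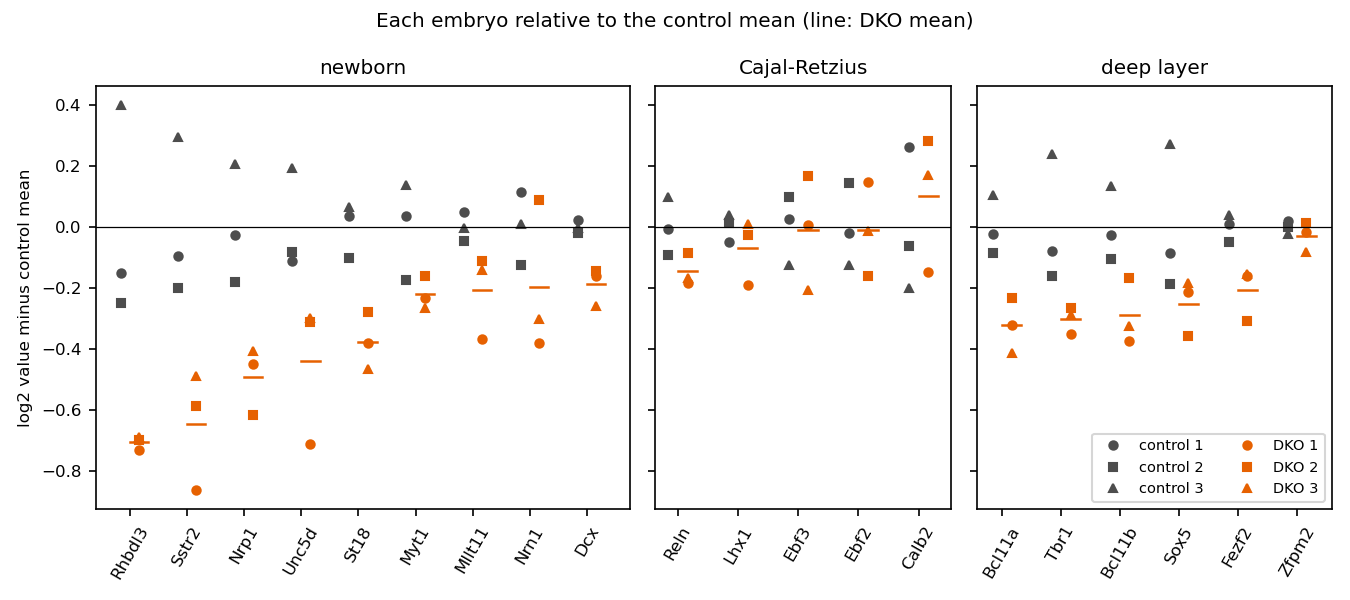
Value of each embryo as log2 value minus the control mean of the gene, for newborn, Cajal-Retzius and deep layer genes; symbols mark the embryo, grey for control and orange for DKO, and the short line is the DKO mean. In Rhbdl3, Sstr2, Nrp1 and Unc5d the 3 DKO embryos lie below the 3 controls and control 3 is highest, while the Cajal-Retzius genes mix the groups.

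The promoters of Sstr2 and Nrp1 are shown because these were the newborn genes among the 4 with the smallest p that had an entry in the sequence table. Each is the 250 bases before a RefSeq transcription start (GRCm38.p6, + strand), chr11:113619077-113619326 for Sstr2 and chr8:128358823-128359072 for Nrp1, written 5′ to 3′ with any searched motif in capitals. The motifs searched on both strands were CAGATG, an E-box of the kind bound by Neurog and Neurod factors, TGACGTCA, the cAMP response element, and GGAATG, the core that TEAD factors bind.
Sstr2: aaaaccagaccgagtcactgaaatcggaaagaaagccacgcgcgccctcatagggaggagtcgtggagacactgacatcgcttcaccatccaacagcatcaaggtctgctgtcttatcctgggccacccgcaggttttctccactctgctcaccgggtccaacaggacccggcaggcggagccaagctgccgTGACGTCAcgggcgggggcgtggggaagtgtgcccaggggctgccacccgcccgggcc
Nrp1: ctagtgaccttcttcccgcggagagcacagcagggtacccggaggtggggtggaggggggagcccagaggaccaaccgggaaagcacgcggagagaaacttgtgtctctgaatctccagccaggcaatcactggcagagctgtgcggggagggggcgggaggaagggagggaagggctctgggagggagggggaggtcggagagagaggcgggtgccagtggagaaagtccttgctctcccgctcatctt
Sstr2 held 1 match, the cAMP response element from position -58, and Nrp1 held none of the 3 motifs in this window. Of the 47 genes, 28 matched the table, with 53 windows of this length. The E-box was in 13 of these windows, from 6 genes (Celf3, Elavl4, L1cam, Map1b, Myt1l and Stmn3), and in 14.4% of all 32851 windows. The cAMP response element was in 4 windows, from Celf3 and Sstr2, and in 1.55% of all windows. The TEAD core was in 3 windows, from Ina, Sox5 and Stmn3, and in 12.6% of all windows. Windows of 1 gene can overlap, so that these counts are not independent of each other, and a match describes letters and not a bound site.

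Deep layer genes had lower means as well, by smaller amounts. All 6 had a lower mean in DKO, with a median log2 fold change of -0.27, and 0 passed the limma test (4 had an unadjusted p under 0.05, and the smallest adjusted p was 0.0882). In 4 of the 6 all DKO embryos lay below all controls: Bcl11a, Bcl11b, Fezf2 and Tbr1. Of all genes, 9.18% were lower at an unadjusted p under 0.05 and 13.4% had all DKO embryos below all controls. The median ran from -0.34 to -0.19 with each embryo left out in turn, the smaller value without control 3.

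Bcl11a, a zinc-finger transcription factor of cortical projection neurons also known as Ctip1, stood at 10.68, 10.62 and 10.81 in control 1, 2 and 3 and at 10.38, 10.47 and 10.29 in DKO 1, 2 and 3. The highest DKO embryo was below the lowest control. Its log2 fold change was -0.32 ± 0.08 (SE, limma adjusted p 0.0882). Bcl11b, or Ctip2, which directs neurons that project to the spinal cord, stood at 10.21, 10.13 and 10.37 in control 1, 2 and 3 and at 9.86, 10.07 and 9.91 in DKO 1, 2 and 3. The gap between the groups was small, between DKO 2 and control 2, and the log2 fold change was -0.29 ± 0.09 (SE, limma adjusted p 0.155).

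Fezf2, which specifies subcerebral projection neurons and is also active in their progenitors, stood at 10.35, 10.29 and 10.38 in control 1, 2 and 3 and at 10.18, 10.04 and 10.19 in DKO 1, 2 and 3. Here DKO 2 was the lowest embryo, unlike in Bcl11b. The log2 fold change was -0.21 ± 0.07 (SE, limma adjusted p 0.194). Tbr1, the T-box factor of preplate and layer 6 neurons, had a log2 fold change of -0.30 ± 0.10 (SE, limma adjusted p 0.207), with control 3 at 9.07 above the other controls at 8.76 and 8.68. Sox5, which times the birth of deep layer subtypes, had the same high control 3, overlapping groups and a log2 fold change of -0.25 ± 0.12 (SE, limma adjusted p 0.349). Zfpm2, a cofactor of GATA factors found in layer 6 neurons, differed from the rest: it stood at 7.62, 7.60 and 7.58 in control 1, 2 and 3 and at 7.58, 7.61 and 7.52 in DKO 1, 2 and 3. The groups overlapped, and the 95% interval of its log2 fold change of -0.03 ran from -0.16 to 0.11.

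Cajal-Retzius genes showed no shared direction. Of 5 tested, 4 had a lower and 1 a higher mean, the median log2 fold change was -0.01 (from -0.09 to 0.04 with each embryo left out), 0 passed the limma test (0 had an unadjusted p under 0.05) and in 0 were the groups apart. With arrays centred on their median, Ebf2 and Ebf3 turned to a higher mean and 2 of the 5 were lower. Reln, which encodes the secreted protein reelin, stood at 9.03, 8.94 and 9.13 in control 1, 2 and 3 and at 8.85, 8.95 and 8.87 in DKO 1, 2 and 3. Only DKO 2 reached into the control range, and the log2 fold change was -0.15 ± 0.07 (SE, limma adjusted p 0.373).

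Calb2, the calcium-binding protein calretinin, varied within both groups: it stood at 6.77, 6.45 and 6.31 in control 1, 2 and 3 and at 6.36, 6.79 and 6.68 in DKO 1, 2 and 3. Its log2 fold change of 0.10 had a 95% interval from -0.22 to 0.42. Lhx1, a LIM homeodomain factor, stood at 6.04, 6.11 and 6.13 in control 1, 2 and 3 and at 5.90, 6.07 and 6.11 in DKO 1, 2 and 3. The groups overlapped, with a log2 fold change of -0.07 ± 0.07 (SE, limma adjusted p 0.705). Ebf2 and Ebf3, helix-loop-helix factors of Cajal-Retzius cells, both had log2 fold changes of -0.01, with 95% intervals from -0.23 to 0.22 for Ebf2 and from -0.25 to 0.23 for Ebf3. Lhx5, a LIM homeodomain factor needed for Cajal-Retzius cells to form, lay between 4.73 and 4.96 in 5 embryos and a little higher in DKO 2, with a mean under the dim limit, and was not tested. Hem and choroid plexus genes had mostly higher means in these arrays (13 of 14): 2 rose (Lmx1a, a homeobox factor of the hem, by 0.47, and Ttr, the transthyretin of choroid plexus, by 2.24), 0 fell and 12 did not pass, with a median of 0.39. Of all genes tested 1.36% were called as higher. The mean log2 value of the 14 ran from 6.11 to 6.37 in control and from 6.48 to 6.88 in DKO, and its part in the Cajal-Retzius values was not tested.

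Pan-neuronal genes mostly had slightly lower means in DKO, with log2 fold changes from -0.31 in Elavl3 to 0.61 in Stmn4. Of the 26, 23 had a lower mean and 3 a higher one, with a median log2 fold change of -0.13. By limma 1 rose, 0 fell and 25 did not pass, where 1.36% of all genes rose and 0.359% fell. At an unadjusted limma p under 0.05, 11 were lower, against 9.18% of all genes. The count at an unadjusted p was 6 without control 3, 7 without control 1 or DKO 1 and 16 without DKO 2. In 11 genes all DKO embryos lay below all controls, and in 20 without DKO 2, against 13.4% and 18.8% of all genes. DKO 2 was the highest DKO embryo in 20 of the 26 and the lowest in 0, against 4325 and 7167 of all 16724 genes tested.

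Genes of RNA-binding proteins held the lowest fold changes of this class. Elavl2, Elavl3 and Elavl4, the neuronal members of the Hu family that bind AU-rich messages, had log2 fold changes of -0.31 each. Elavl4 stood at 7.90, 7.86 and 8.05 in control 1, 2 and 3 and at 7.54, 7.72 and 7.61 in DKO 1, 2 and 3. Elavl2 stood at 8.76, 8.73 and 8.95 in control 1, 2 and 3 and at 8.45, 8.59 and 8.46 in DKO 1, 2 and 3. Elavl3 stood at 10.01, 10.01 and 10.17 in control 1, 2 and 3 and at 9.69, 9.89 and 9.67 in DKO 1, 2 and 3. In each of the 3 genes the groups were apart, control 3 was the highest embryo and DKO 2 the highest of the DKO embryos. Their limma adjusted p values were 0.0987 for Elavl4, 0.113 for Elavl2 and 0.115 for Elavl3. The splicing factor Rbfox3, known as the neuronal antigen NeuN, had a log2 fold change of -0.28 ± 0.09 (SE, limma adjusted p 0.189) with groups apart, and its relative Rbfox1 one of -0.13 ± 0.08 (SE, limma adjusted p 0.479). Celf3, another splicing factor of neurons, had -0.19 ± 0.06 (SE, limma adjusted p 0.190) with groups apart.

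Genes of the neuronal microtubule differed by less. Tubb3, the neuronal beta-tubulin, stood at 11.58, 11.62 and 11.62 in control 1, 2 and 3 and at 11.36, 11.47 and 11.43 in DKO 1, 2 and 3. The groups were apart by a small margin, and the log2 fold change was -0.18 ± 0.06 (SE, limma adjusted p 0.194), a 1.14-fold lower signal. The microtubule-associated proteins tau (Mapt), Map1b and Map2 had log2 fold changes of -0.19, -0.13 and -0.12. For Mapt and Map1b the groups did not overlap, and for Map2 they did.

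The stathmins, small proteins that bind tubulin and favour the disassembly of microtubules, held the only call. Stmn4 stood at 6.95, 6.94 and 6.77 in control 1, 2 and 3 and at 7.38, 7.43 and 7.67 in DKO 1, 2 and 3. Every DKO embryo was above every control, and control 3, the highest control in most other genes of the 46, was the lowest here. The mean went from 6.89 ± 0.10 (SD, n = 3) to 7.49 ± 0.15 (SD, n = 3), a log2 fold change of 0.61 ± 0.09 (SE, limma adjusted p 0.0146) or 1.52-fold. Without control 3 the adjusted p was 0.0660, and it stayed between 0.0261 and 0.0453 with each other embryo left out. The array has a second row for Stmn4, and it did not show this: it stood at 6.93, 6.67 and 6.92 in control 1, 2 and 3 and at 6.84, 7.16 and 6.96 in DKO 1, 2 and 3. In that row the groups overlapped and the difference of means was 0.15, and when it stood for the gene the limma adjusted p was 0.554. With the mean of both rows the log2 fold change was 0.38 (limma adjusted p 0.0506). The part of the transcript behind each row is not given in the sources used here.

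Stmn1, Stmn2 and Stmn3 lay on the other side of 0. Stmn1, which progenitors also express, Stmn2, a protein of growth cones, and Stmn3 had log2 fold changes of -0.14, -0.11 and -0.12, with limma adjusted p values of 0.437, 0.534 and 0.460. Their groups overlapped. In Stmn2 and Stmn3 it was DKO 2, at 11.22 and 11.36, that reached the controls, which ran from 11.13 to 11.26 for Stmn2 and from 11.35 to 11.39 for Stmn3.

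**Figure D3:**
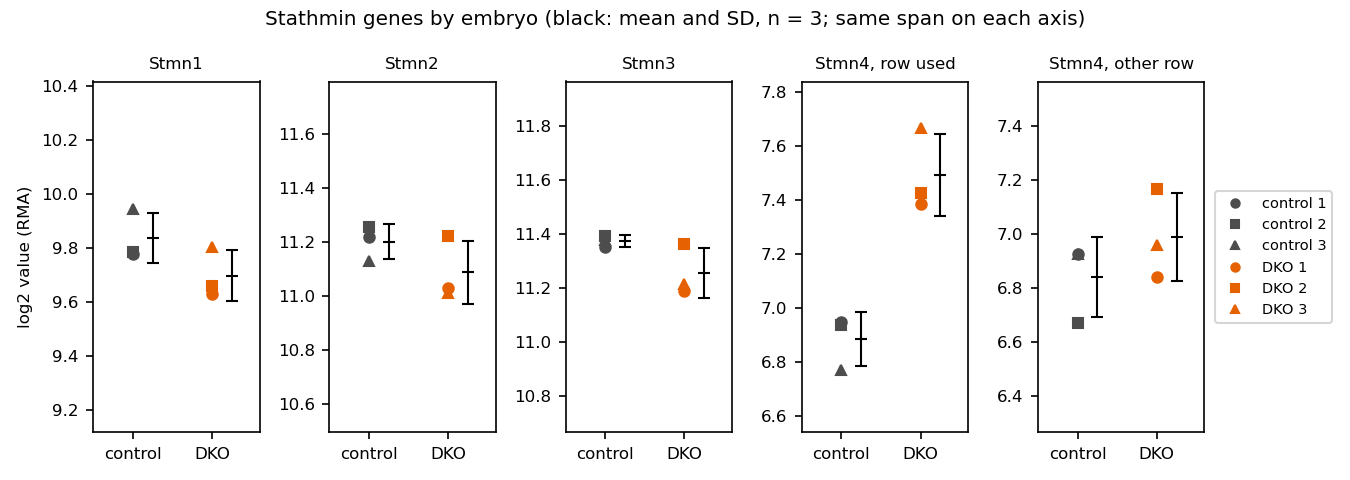
Log2 value of each embryo for Stmn1, Stmn2, Stmn3 and the 2 rows of Stmn4, with the group mean and SD in black (n = 3); each axis spans the same range of log2 units around its own mean. The row used for Stmn4 separates the groups (6.89 against 7.49), and the other row (6.84 against 6.99) does not.

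All 6 genes with more than 1 row had differences of 1 sign over their rows, with smaller or larger sizes. After Stmn4, Dpysl3 had the rows widest apart, with -0.17 in the row used and -0.34 in the other, and the groups did not overlap in either row. Dpysl3 and Crmp1, collapsin response mediators that steer growth cones, had log2 fold changes of -0.17 ± 0.07 and -0.10 ± 0.06 (SE, limma adjusted p 0.290 and 0.459), with groups apart in both. The cell adhesion molecules L1cam and Ncam1 had -0.29 ± 0.09 and -0.19 ± 0.08 (SE, limma adjusted p 0.163 and 0.287), with groups apart for L1cam and not for Ncam1. Gap43, the growth cone protein of extending axons, had 0.01 ± 0.11 (SE, limma adjusted p 0.971). It ranged from 8.65 in DKO 1 to 9.11 in DKO 2, wider than the controls, which lay between 8.75 and 8.94.

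Filament and synaptic genes mostly lay close to 0. The intermediate filaments Ina, Nefl and Nefm had log2 fold changes of -0.07, -0.09 and -0.01, and the 95% interval of Nefl, the widest, ran from -0.33 to 0.15. Nefm turned to a higher mean when arrays were centred on their median. The synaptic vesicle genes Snap25 and Syt1 had log2 fold changes of -0.12 ± 0.10 and 0.10 ± 0.08 (SE, limma adjusted p 0.616 and 0.615). Syt4, a synaptotagmin found early in neurons, had -0.18 ± 0.08 (SE, limma adjusted p 0.299). Myt1l, the neuronal member of the Myt family, had -0.09 ± 0.11 (SE, limma adjusted p 0.738), and DKO 2 at 7.88 was its highest embryo. The groups overlapped in each of these genes.

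The embryos of a group were not alike across these genes. Control 3 was the highest control in 31 of the 46, DKO 1 the lowest DKO embryo in 27 and DKO 2 the highest DKO embryo in 32. Over all 16724 genes tested these counts were 6473, 5399 and 4325. As the mean over a class of each gene's log2 value minus its control mean, the newborn genes stood at -0.48 in DKO 1, -0.31 in DKO 2 and -0.37 in DKO 3, with controls from -0.13 to 0.14. The deep layer genes stood at -0.24, -0.22 and -0.24 in DKO 1, 2 and 3, with controls from -0.10 to 0.13. The pan-neuronal genes stood at -0.20, -0.02 and -0.13, so that DKO 2 lay within the range of the controls, from -0.03 to 0.04. The Cajal-Retzius genes stood at -0.07, 0.04 and -0.04, with controls from -0.06 to 0.04. The low values of endothelial, meningeal and erythroid genes in DKO 2 went with its higher pan-neuronal values, and their part in these values was not tested. Without DKO 2 the pan-neuronal median was -0.19, the newborn median -0.42 and the deep layer median -0.26.

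**Figure D4:**
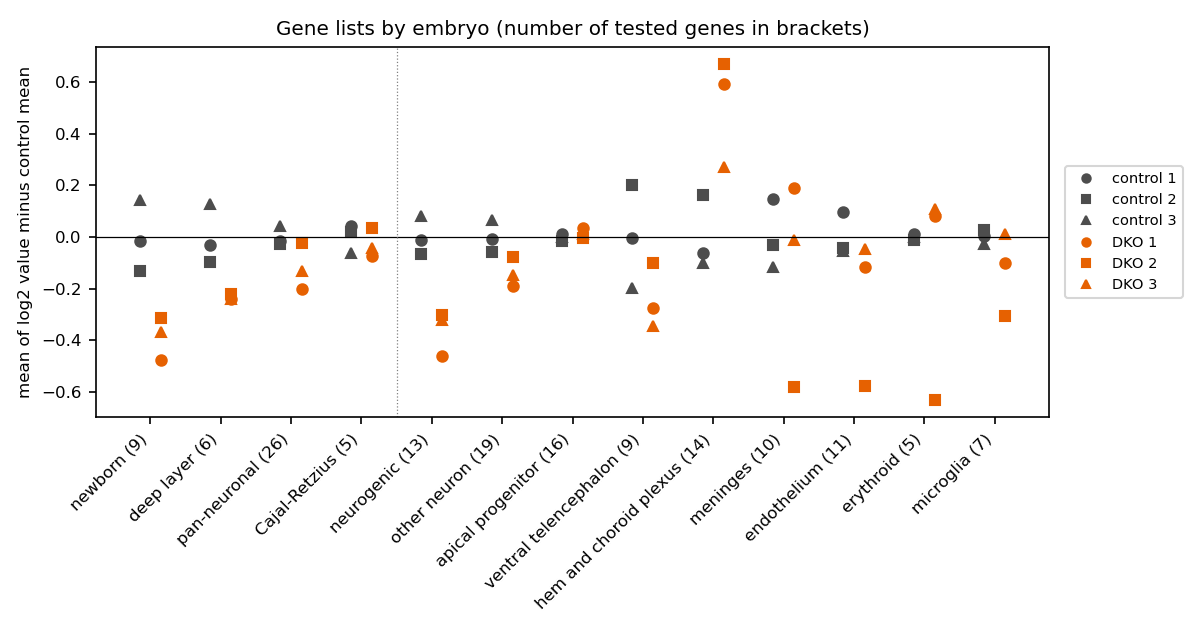
Mean over the tested genes of each list of log2 value minus the gene's control mean, by embryo (symbols) and group (grey control, orange DKO); the dotted line parts the 4 neuron classes from other lists. Newborn and deep layer genes separate the groups, DKO 2 reaches the controls in pan-neuronal genes and lies at -0.58, -0.58 and -0.63 in meningeal, endothelial and erythroid genes.

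Apical progenitor genes, from whose cells these neurons descend, had no common direction in the same arrays: of 16 tested, 2 rose, 1 fell and 13 did not pass, with a median of -0.02. Of all genes tested 1.36% were called as higher and 0.359% as lower. The apical progenitor genes split both ways. In 5 (Hes1, Nes, Vim, Slc1a3 and Hmga2) all DKO embryos lay above all controls, against 8.22% of all genes. In 4 (Hes5, Sox9, Emx2 and Lhx2) all lay below, against 13.4%. Hes5, a Notch-induced repressor of neuron formation, fell by 0.90 ± 0.09 (SE, limma adjusted p 0.00197), and Hmga2, an architectural DNA-binding protein of young progenitors, rose by 0.51 ± 0.09 (SE, limma adjusted p 0.0372). In the neurogenic list the fallen genes were Mfng, Gadd45g, Hes6 and Btg2, and all 13 had their DKO embryos below all controls, against 13.4% of all genes. Both lists were chosen with earlier results of these data known, so these counts describe them and are no independent test.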

How the data were processed

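Total RNA of 6 cortices (3 control, 3 DKO) was measured on 1 array each. The deposited values are log2 values made by the authors with RMA, per the submitters' processing notes; its version is not given in the sources used here. This sets all arrays to 1 distribution. Array medians lay between 5.94 and 5.97, Pearson correlations between arrays between 0.978 and 0.994, and no 2 arrays were identical. The number of arrays (3 per group) limits the precision.

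Symbols came from the platform annotation: 23521 of 41345 rows had 1 symbol, 1814 had several, and the rest none listed here. Genes with a mean under the 25th percentile of one-symbol rows (5.02) were left out, leaving 16724. DKO was compared with control by limma 3.58.1 in R 4.3.3 (lmFit, eBayes, two-sided, 4 residual and 4.44 prior degrees of freedom, Benjamini-Hochberg over all genes tested), with no covariate. An exact permutation test of 3 against 3 cannot go below p = 0.1. The scripts were tested on simulated data. Intervals are 95% intervals of the limma fit.

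The genes, their 4 classes and the other lists (microglia, erythroid, endothelium, meninges, hem with choroid plexus, ventral telencephalon, apical progenitor, other neuron, neurogenic) were chosen with earlier results of these data known. Any of the 47 genes could be named. In each class the 3 with the smallest p and the largest and smallest fold change are given by embryo, with a few others, and of other lists the 2 with the smallest p or the called ones. Alternatives were the filter, centring, repeated quantile normalization, other variance priors, array weights, other rows of a gene, a replicate block, embryo sex and leaving out each array; counts at an unadjusted p and of groups apart without each array were added after seeing the data. Same-numbered arrays had correlated deviations of -0.10, 0.21 and 0.15 for numbers 1, 2 and 3, and the labels tie the numbers to no litter or day.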

Additional observations from a re-analysis of the deposited data

How the results depend on the processing

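Over 17 alternative fits (16 for Ebf2, Lhx1, Nefl, Nefm and Syt4, which were under the dim limit in 1 of them), 41 of the 46 tested genes kept the sign of their difference, and the 5 others all had log2 fold changes within 0.1 of 0. Ebf2 turned to 0.0189 with arrays centred on their median and to 0.00090 with array weights, Ebf3 to 0.0169 with centred arrays, Nefm to 0.0182 with centred arrays, 0.0109 with repeated quantile normalization and 0.011 with array weights, and Gap43 to -0.0079 with array weights. With 1 array left out, Ebf2 ran from -0.087 to 0.0675, Ebf3 from -0.10 to 0.0873, Gap43 from -0.10 to 0.13, Nefm from -0.045 to 0.0421 and Myt1l from -0.21 to 0.0107. The count of genes called among the 46 was 1 in the reported fit. It was 5 (over all genes 421 of 11313) with the dim limit at the median row (newborn 4: Nrp1, Rhbdl3, Sstr2 and St18), where fewer genes were tested. It was 2 (over all genes 327 of 16724) with repeated quantile normalization (newborn 1, Nrp1). It was 8 (over all genes 485 of 16724) with a trended variance prior (newborn 4, deep layer 1, pan-neuronal 3). It was 3 (over all genes 421 of 16724) with array weights (newborn 2). It was 0 with the mean of a gene's rows (over all genes 282 of 16661) or its dimmest row (270 of 16417). The pan-neuronal count was 0 in both, which replace the row of Stmn4. With each array left out the count among the 46 ran from 1 to 2, for the newborn class from 0 to 1 and for the pan-neuronal class from 0 to 1. All calls other than Stmn4 were decreases. With the replicate block it was 2 (newborn 2, Nrp1 and Sstr2; pan-neuronal 0, Stmn4 at an adjusted p of 0.0659); the numbers do not pair the samples by the labels, and not every same-numbered pair had a positive correlation. Over all 16724 genes tested 288 were called, 485 with a trended variance prior, 200 with the replicate block, 189 with embryo sex as a covariate and from 134 to 314 with 1 array left out. Of these calls the decreases moved most: 60 as reported, 41 with no filter on dim genes, 134 with the limit at the median row, 162 with the trended prior, 123 with array weights, 24 with the replicate block, 26 with embryo sex and from 11 to 54 with 1 array left out. The cause of these shifts was not tested. The labels give no sex, so it was inferred from the signals of Xist and Y-linked genes on these arrays. By this reading the controls held 1 male and 2 female embryos and the DKO group 2 male and 1 female. Stmn4 was called with sex in the fit (limma adjusted p 0.0280). The exact permutation p of Stmn4 was 0.1, the smallest that 3 against 3 allow. Dim genes such as Lhx5, Nefm and Nefl cannot be told from background without a detection call.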

Other observations

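Other neuron genes, a list also chosen with earlier results of these data known, had mostly lower means in DKO on the same 6 arrays. Of 19 tested, 0 rose, 0 fell and 19 did not pass the limma test (7 were lower at an unadjusted p under 0.05), 15 had a lower mean, and the median log2 fold change was -0.13. Of all genes, 9.18% were lower at that p and 60.2% had a lower mean. Nhlh1, a helix-loop-helix factor of newborn neurons, had -0.36 ± 0.08 (SE, limma adjusted p 0.0622) and Neurod6, one of postmitotic cortical neurons, -0.54 ± 0.15 (SE, limma adjusted p 0.123). The tubulins Tuba1a and Tubb2b, which progenitors express too and which were picked after their values were seen, had log2 fold changes of -0.03 and 0.02.

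Genes of the ventral telencephalon, where cortical interneurons are born and where several of the pan-neuronal genes are also expressed, were lower in mean as well. Of 9 tested, 0 passed the limma test (3 were lower at an unadjusted p under 0.05), all 9 had a lower mean and the median was -0.21. Of all genes, 9.18% were lower at that p and 60.2% had a lower mean. Dlx2, a homeobox factor of interneuron precursors, stood at 8.88, 9.08 and 8.28 in control 1, 2 and 3 and at 7.97, 8.26 and 8.02 in DKO 1, 2 and 3, a log2 fold change of -0.66 ± 0.18 (SE, limma adjusted p 0.137). Dlx5 had -0.47 ± 0.16 (SE, limma adjusted p 0.204). Control 3, the highest control in most of the 46 neuron genes, was the lowest control in both.

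In the lists of non-neural cells 0 genes passed the limma test. At an unadjusted p under 0.05, 3 of 11 endothelial, 2 of 10 meningeal, 0 of 5 erythroid and 1 of 7 microglial genes were lower, against 9.18% of all genes. The members with the smallest p were Rgs5 and Cldn5 of vessels (log2 fold changes of -0.35 and -0.34), Cxcl12 and Slc6a13 of meninges (-0.42 and -0.25), Hbb-y and Slc4a1 of red cells (-0.19 and -0.32) and C1qc and C1qb of microglia (-0.28 and -0.21). The mean log2 value of DKO 2 was the lowest of the 6 embryos in all 4 lists.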
